A study of Mus musculus with 12 samples.

Results

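The genes described here were 37 mouse genes of fatty acid and cholesterol metabolism, out of 55401 genes counted. They were chosen by symbol as the lipid branch of the pathways under AMPK, the energy-sensing kinase, and each symbol had 1 Ensembl identifier in the count table. By role, 12 belonged to fatty acid synthesis, 3 were transcription factors of lipid synthesis, 14 belonged to fatty acid oxidation, 3 activated fatty acids to acyl-CoA and 5 belonged to sterol synthesis. RNA was sequenced from oocytes of primordial follicles, the dormant stage, and of primary follicles, the first growing stage, cut by laser from fixed and stained sections of mouse ovaries. The ovaries came from C57Bl/6j x CBA/J female mice of 7 to 8 days of age and were cultured for 5 days with the solvent DMSO (control, labelled sham) or with dorsomorphin (DM), an inhibitor of AMPK. All ovaries shared a medium with serum, insulin and follicle-stimulating hormone. The study names 10 µM as its lead concentration of DM, and the labels give none for these libraries. Each of the 4 groups had 3 libraries, each made from 200 pooled oocytes, so a library is an average over a pool and not 1 follicle. The labels call the material in vivo and give no treatment protocol, whereas the study describes cultured ovaries, and the study's description is used.

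AMPK is active when a cell is short of energy. It phosphorylates and inhibits both acetyl-CoA carboxylases, *Acaca* and *Acacb*, which make malonyl-CoA. Malonyl-CoA is the building block of fatty acids, and it also blocks the carnitine palmitoyltransferase *Cpt1a*, the gate through which long fatty acids enter mitochondria for oxidation, so that the kinase turns synthesis down and oxidation up. This control acts on proteins and is not visible in RNA. Transcription of the synthesis genes is driven mainly by SREBP-1c (*Srebf1*), SREBP-2 (*Srebf2*) and ChREBP (*Mlxipl*), and oocytes are known to depend on oxidation of fatty acids as they mature.

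The sequences shown are the promoter of the sterol gene for which the groups of primordial follicles did not overlap, and the stretch shared by the genes of both subunits of the mitochondrial trifunctional protein. Promoter windows were taken from RefSeq (GRCm38.p6) from 250 bases before to 50 bases from the start of transcription, and 31 of the 37 genes had at least 1 window. In the *Hmgcs1* promoter, chr13:119690101-119690400 on the plus strand, capitals mark 1 match to the sterol response element TCACNCCAC, which begins 137 bases before the start, and 4 CCAAT boxes, which read ATTGG on this strand. *Hadha* and *Hadhb* are transcribed away from each other, with starts 273 bases apart, at chr5:30154980-30155253 on the plus strand. In that stretch, capitals mark the first transcribed base according to RefSeq, of *Hadha* at the left end and of *Hadhb* at the right end. GENCODE, from which the gene positions below are taken, starts *Hadha* inside the stretch, at 30155162, and *Hadhb* at 30155248.
Hmgcs1: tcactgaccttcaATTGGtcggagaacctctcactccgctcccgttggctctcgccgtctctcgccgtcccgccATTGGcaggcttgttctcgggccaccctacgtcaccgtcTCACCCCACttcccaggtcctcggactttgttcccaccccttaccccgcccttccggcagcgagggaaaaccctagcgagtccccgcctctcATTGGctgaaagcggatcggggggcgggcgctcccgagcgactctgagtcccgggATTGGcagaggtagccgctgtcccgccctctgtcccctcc
Hadha and Hadhb: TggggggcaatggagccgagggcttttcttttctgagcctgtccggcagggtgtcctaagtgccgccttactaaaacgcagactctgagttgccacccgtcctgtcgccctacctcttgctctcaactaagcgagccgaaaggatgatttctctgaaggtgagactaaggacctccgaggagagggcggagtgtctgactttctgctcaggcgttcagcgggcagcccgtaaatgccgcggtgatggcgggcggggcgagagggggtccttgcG
The sterol response element was searched on both strands and was found in 3 of the 38 windows of these genes (*Hmgcs1*, *Acsl1* and *Mlxipl*, 7.89%) and in 1.24% of all 32851 windows. A CCAAT box was found in 47.4% of the windows of these genes and in 37.4% of all windows, and the E-box CACGTG in 7.89% and 7.15%. A match of letters is not a bound site.

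Total counts ranged from 14034586 to 42639326 per library, so that 3 counts, the limit read for a count of 0, corresponded to between 0.0704 and 0.214 CPM (counts per 1000000 counts of the library). These limits cover counting error only, since amplified reads without molecular identifiers are not independent molecules. Between 2913 and 9333 genes had at least 10 counts in a library. The lowest number was in control replicate 3 of primary follicles, where 51.2% of all counts lay on 100 genes. Of 14 oocyte markers, all 14 had a count in at least 1 library of each control group, 13 in primordial DM and 11 in primary DM. The germ cell marker *Ddx4*, with at least 11 counts in every library, was alone in reaching 10 counts in all 12. *Kit*, *Zp1* and *Zp2* also had a count in every library. Others were often absent, with *Oosp1* at 0 in 8 of the 12 libraries, *Bmp15* and *Sohlh1* in 7, *Figla* in 6 and *Lhx8* in 5. Some markers of other cells were abundant too. The summed level of 12 granulosa cell markers was 374 to 14600 CPM and that of 12 stroma and theca markers 2390 to 12900 CPM. That of the oocyte markers was 8.13 to 1460 CPM. The lists were uneven within. Of the granulosa markers, *Fshr* was at 0 in every library, *Inhba* at 0 in 11, and *Hsd17b1* had at most 1 count. Of the stroma and theca markers, *Col1a1*, *Col1a2* and *Col3a1* had at least 2892, 7009 and 932 counts in every library. The theca markers *Cyp17a1* and *Star* had at most 5 and 11 counts. In primary follicles the granulosa sum was 1770 to 8880 CPM in controls and 881 to 14600 CPM after DM, and in primordial follicles 1470 to 3220 and 374 to 3860 CPM. Of 7 adipocyte markers, *Adipoq*, *Fabp4*, *Lep*, *Cidec* and *Retn* were at 0 in all 12 libraries, and the sum of the 7 ranged from 0.117 to 1720 CPM. The highest sum was nearly all *Lpl*, lipoprotein lipase, with 53406 counts in primary control replicate 3, the library that also held the highest levels of *Fasn*, *Fads1* and *Fads3*. Fewer cells of a type and less RNA per cell cannot be told apart in pooled RNA, and the part of other cells in the lipid gene levels was not tested.

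The lipid genes were unevenly detected, synthesis genes more often than oxidation genes. Only *Acaca*, *Fasn* and *Scd2* had at least 10 counts in all 12 libraries, 20 genes did in 6 to 11 libraries, 12 in 1 to 5, and *Cpt1c* and *Eci1* had no count in any library. For 22 of the genes, more than 50% of the CPM summed over the 12 libraries lay in 1 library. The median share of that top library was 53.3% over the lipid genes with counts and 64.0% over all 12938 genes with at least 10 counts in some library. Per kilobase of exon, the highest median levels over the 12 libraries were those of *Scd2* (40.9 CPM per kb), *Fads1* (30.8), *Acly* (21.2), *Hmgcs1* (8.93) and *Acaca* (8.15). The oxidation genes lay lower than these 5, with *Acaa2* at 2.59, *Hadha* at 1.15 and *Cpt1a* at 0.0679 CPM per kb. Some synthesis genes were as low, such as *Elovl5* at 0.131, *Scd1* at 0.0418 and *Elovl6* at 0.0398 CPM per kb. Neighbours in this order overlapped widely across libraries.

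**Figure D1:**
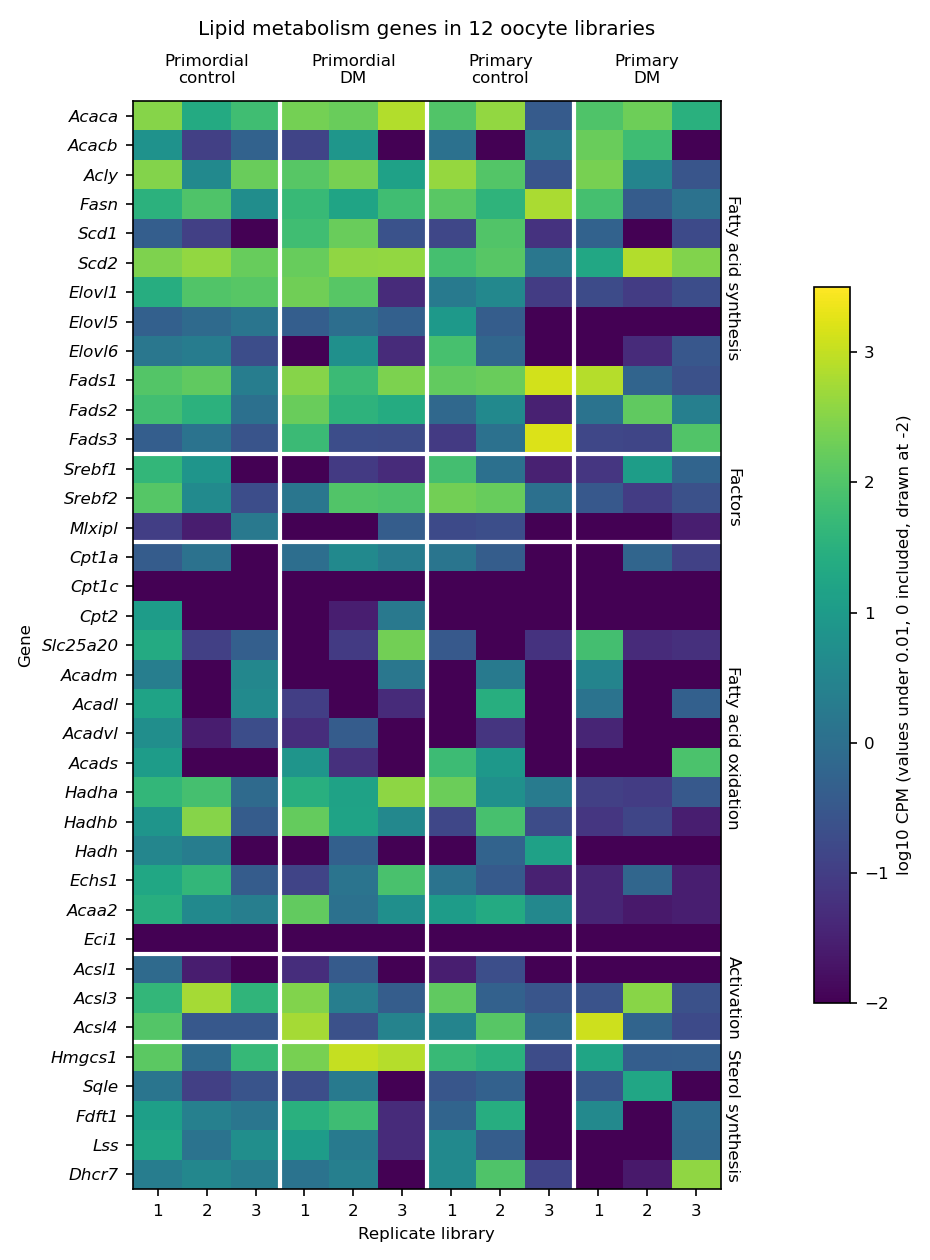
Heat map of log10 CPM for the 37 genes (rows, grouped by role) in the 12 libraries (columns, 3 replicates for each group), with values under 0.01 CPM drawn at the bottom of the scale. Many rows are bright in 1 or 2 columns of a group and dark in the rest, as for *Fads3*, which reached 1630 CPM in primary control replicate 3.

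Counting a gene as detected in a library at 10 counts or more, the 12 synthesis genes were detected in 83.3% of gene-library pairs in primordial controls, 77.8% in primordial DM, 69.4% in primary controls and 61.1% in primary DM. The 14 oxidation genes were detected in 52.4, 47.6, 35.7 and 19% of pairs in the same order. For all 12938 genes the shares were 53.4, 41.6, 39.6 and 27.7%. The lipid genes followed the order of the groups seen over all genes. In primary DM, 7 of the 14 oxidation genes and 6679 of all 12938 genes were detected in no library, and *Cpt1c* and *Eci1* are among the 7.

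**Figure D2:**
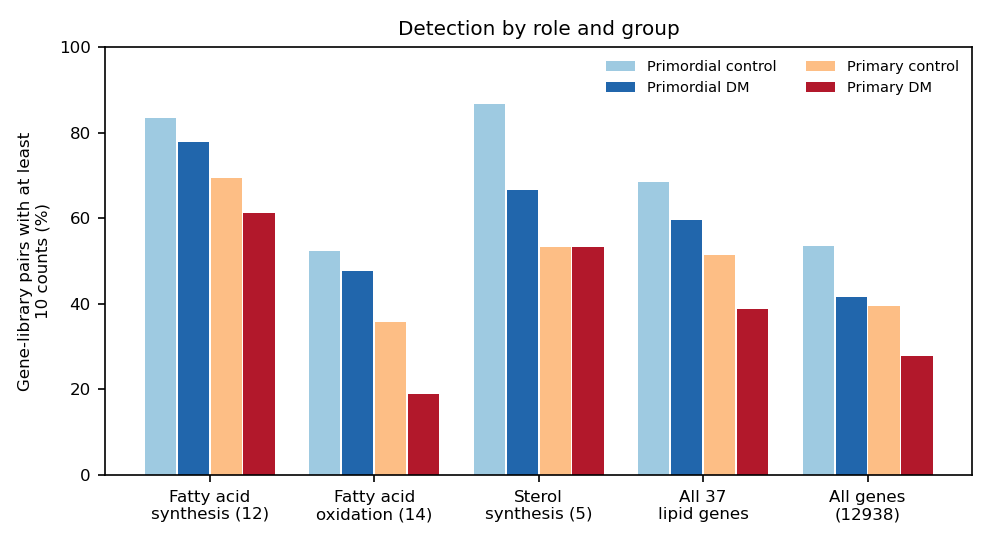
Share of gene-library pairs with at least 10 counts (vertical axis, percent) for each role, for all 37 lipid genes and for all genes detected in some library, in the 4 groups (bars). Oxidation genes ranged from 52.4% in primordial controls to 19% in primary DM, and all genes from 53.4% to 27.7%.

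DM was first compared with control in oocytes from primordial follicles, which asks whether the transcripts of lipid metabolism in dormant follicles move with DM. By edgeR's quasi-likelihood test, no lipid gene of 27 tested had an adjusted p under 0.05, as against 1 of all 6699 genes (0.0149%). At an unadjusted p under 0.05, *Scd1* and *Hmgcs1* were higher after DM, 2 of 27 genes, against 7.33% of all genes in either direction and 2.48% higher. *Hmgcs1* was the only lipid gene whose 3 DM libraries all lay above the 3 controls, which held for 2.06% of all genes tested. Fitted log2 fold changes were above 0 for 20 of the 27 genes and for 52.0% of all genes. Genes that passed the filter on low counts are not all of the lipid genes, and passing can rest on 1 group. DESeq2, an alternative test, called *Scd1* among 23 lipid genes with an adjusted p (12.5% of all genes called). Fitted to all 12 libraries, it called *Hmgcs1* and *Scd1* among 17 (11.2% of all genes called).

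The same comparison in oocytes from primary follicles gave no lipid gene of 23 with an adjusted p under 0.05 by edgeR, and none of all 4181 genes (0%). At an unadjusted p under 0.05, *Acaa2* and *Srebf2* were lower after DM, 2 of 23 genes, against 12.2% of all genes in either direction and 8.11% lower. *Acaa2*, *Srebf2* and *Hadha* had all 3 DM libraries below the 3 controls, 3 of 23 genes against 11.8% of all genes. *Acaa2* and *Srebf2* had at least 10 counts in no DM library here, and *Hadha* in 1, with 12 counts. All 3 passed the filter on low counts through the controls, so their lower levels are not independent of the filter. Fold changes were above 0 for 10 of the 23 genes and for 52.6% of all genes. DESeq2 called *Acaa2* and *Srebf2* lower and *Scd2* higher among 13 lipid genes with an adjusted p (23.1%, against 21.2% of all genes called). Fitted to all 12 libraries, it called *Acaa2* lower and *Acaca* and *Scd2* higher among 17 (17.6%, against 16.5%). The shares of lipid genes with an unadjusted p under 0.05 were near those of all genes in both stages.

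Levels are given below as CPM of library totals, whereas fold changes are log2 values fitted to counts scaled by TMM, a method that corrects for differences in composition. The scales differ: relative to their geometric mean, total counts of the libraries ran from 0.483 to 1.47 and sizes with TMM from 0.298 in primary control replicate 3 to 3.73 in primordial control replicate 1. The typical error was large, with a median standard error over all genes of 2.84 on the log2 scale in primordial and 3.14 in primary follicles.

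Among the synthesis genes, *Acaca* (chromosome 11, 84129672 to 84401651), the cytosolic acetyl-CoA carboxylase and a substrate of AMPK, was present in every library. It stood at 313, 22.5 and 64.3 CPM in the 3 primordial controls, 222, 176 and 725 CPM in primordial DM, 103, 412 and 0.386 CPM in primary controls and 95.5, 191 and 31.5 CPM in primary DM. The groups overlapped in both stages, and primary control replicate 3 was the 1 low library. The log2 fold change with DM was 2.55 ± 2.28 (SE) in primordial follicles (edgeR adjusted p = 0.799). In primary follicles it was 1.55 ± 3.19 (edgeR adjusted p = 0.806), and it was -0.83 with counts scaled by library size alone, where the median of all genes was -0.96. With DESeq2 it was 4.37, where the median of all genes was 0.73. Fitted to all 12 libraries, DESeq2 gave 4.81 with an adjusted p of 0.0476, where the median of all genes was 0.0.

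*Acacb*, the carboxylase at the mitochondrial outer membrane, stood at 6.21, 0.108 and 0.529 CPM in primordial controls, 0.131, 7.62 and 0 CPM in primordial DM, 1.14, 0 and 1.48 CPM in primary controls and 173, 61.2 and 0 CPM in primary DM. Its 2 high libraries were both of primary DM, while the third library of that group had no count, so the groups overlapped. *Acly*, which makes cytosolic acetyl-CoA from citrate, stood at 309, 4.04 and 171 CPM in primordial controls, 116, 232 and 14.1 CPM in primordial DM, 429, 108 and 0.289 CPM in primary controls and 234, 3.03 and 0.285 CPM in primary DM. Each group held at least 1 library far below the others, and the groups overlapped.

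*Fasn*, the fatty acid synthase that builds palmitate, stood at 34.6, 95.7 and 5.09 CPM in primordial controls, 49.7, 16.0 and 64.8 CPM in primordial DM, 126, 38.4 and 645 CPM in primary controls and 76.8, 0.399 and 1.17 CPM in primary DM. In primary follicles 2 of 3 DM libraries were below every control, and the first was between them. Its log2 fold change was 0.34 ± 2.99 in primordial follicles (edgeR adjusted p = 0.985), with a sign that turned without control replicate 1 (-0.01), control replicate 3 (-0.19) or DM replicate 3 (-0.25). It was -4.57 ± 3.56 in primary follicles (edgeR adjusted p = 0.502), and -0.32 without primary control replicate 3.

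The stearoyl-CoA desaturases put the first double bond into saturated fatty acids. *Scd2* was the steadiest synthesis gene in primordial follicles, at 278, 409 and 169 CPM in controls and 169, 394 and 403 CPM after DM. In primary follicles it stood at 74.8, 118 and 1.51 CPM in controls and 20.2, 740 and 285 CPM after DM, and the groups overlapped. *Scd1* (chromosome 19, 44394455 to 44407879) stood at 0.449, 0.108 and 0 CPM in primordial controls and at 65.7, 173 and 0.238 CPM in primordial DM. DM replicates 1 and 2 were the only primordial libraries with more than 17 counts, and DM replicate 3, with 5 counts, lay among the controls. The log2 fold change was 9.51 ± 4.31 (edgeR adjusted p = 0.658), and its fitted size depends on the controls near 0. In primary follicles *Scd1* stood at 0.147, 101 and 0.0643 CPM in controls and at 0.545, 0 and 0.171 CPM after DM, with 1415 counts in control replicate 2 and at most 15 in any other library, and it did not pass the filter on low counts.

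The desaturases *Fads1* and *Fads3* and the elongase *Elovl5* act on longer chains. *Fads1*, the delta-5 desaturase, stood at 105, 143 and 2.12 CPM in primordial controls, 316, 57.1 and 258 CPM in primordial DM, 154, 179 and 1310 CPM in primary controls and 777, 0.586 and 0.228 CPM in primary DM. *Fads3* stood at 0.449, 1.27 and 0.265 CPM in primordial controls, 57.5, 0.201 and 0.190 CPM in primordial DM, 0.0880, 1.14 and 1630 CPM in primary controls and 0.145, 0.141 and 100 CPM in primary DM. *Fads3* was thus near 0 in 9 libraries and high in 1 library of each group except primordial controls. *Elovl5* stood at 0.476, 0.809 and 1.39 CPM in primordial controls, 0.445, 0.975 and 0.475 CPM in primordial DM and 9.04, 0.428 and 0 CPM in primary controls, and it was at 0 in all 3 libraries of primary DM. That makes the mean at least 35.7-fold lower in primary DM than in primary controls, taking 3 counts per library for 0, but only at least 2.42-fold without control replicate 1.

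The 3 other synthesis genes varied as widely. *Fads2*, the delta-6 desaturase, ranged from 0.0321 to 176 CPM. *Elovl6*, which lengthens palmitate to stearate, had 88.5% of its summed CPM in primary control replicate 1. *Elovl1*, an elongase of very long chains, stood at 27.0 to 118 CPM in primordial controls, at 205, 119 and 0.0475 CPM in primordial DM and at most at 3.78 CPM in primary follicles, and its exons overlap those of *Cdc20* on the other strand, whose reads could not be told apart if strand was not used in counting.

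Summed over the 12 synthesis genes, the level was 533 to 1140 CPM in primordial controls and 1220 to 1490 CPM in primordial DM, without overlap. The same held with TMM scaling (308 to 576 against 924 to 1460) and with the size factors of DESeq2 (106 to 324 against 433 to 2150). These rescale the same libraries and are not separate evidence. How often the sums of other sets of genes lie apart was not tested. The most abundant genes in these sums were *Scd2*, *Acaca*, *Acly* and *Fads1*, none of which had groups apart on its own. On library totals, the lowest DM sum (1220 CPM, replicate 2) included 173 CPM of *Scd1*, more than its distance from the highest control sum. The separation on that scale thus depends on *Scd1*, a gene already picked out above by its unadjusted p. The log2 fold change was above 0 for 11 of the 12 genes, with a median of 1.18 against 0.13 for all genes tested. The median stayed above 0 under every alternative tried. In primary follicles the sums overlapped, at 966 to 3590 CPM in controls and 421 to 1380 CPM after DM, and the median over the 9 tested genes was -0.04 against 0.31 for all genes. Without primary DM replicate 1 it was -4.06, against -2.45 for all genes, and with the size factors of DESeq2 it was 2.16, against 2.04 for all genes.

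Among the transcription factors, *Srebf2* (chromosome 15, 82147181 to 82205379), the main activator of cholesterol synthesis genes, stood at 112, 4.29 and 0.198 CPM in primordial controls, 1.44, 104 and 93.9 CPM in primordial DM, 211, 164 and 1.06 CPM in primary controls and 0.327, 0.0938 and 0.228 CPM in primary DM. The primary DM libraries had 4 to 9 counts, below each of the 3 primary controls, of which replicate 3 had 33 counts. The log2 fold change in primary follicles was -7.44 ± 3.73 (edgeR adjusted p = 0.396) and lay between -7.82 and -6.68 when each library was left out in turn. *Srebf1*, which drives fatty acid synthesis genes, stood at 43.3, 7.55 and 0 CPM in primordial controls, 0, 0.0860 and 0.0475 CPM in primordial DM, 73.0, 1.07 and 0.0321 CPM in primary controls and 0.0727, 11.5 and 0.599 CPM in primary DM. Its 3 primordial DM libraries held 4 counts in all, yet primordial control replicate 3 was also at 0, so the groups overlapped, and the gene did not pass the filter there. *Mlxipl*, the glucose-responsive factor, stood at 0.106, 0.0270 and 1.65 CPM in primordial controls, 0, 0 and 0.428 CPM in primordial DM, 0.176, 0.214 and 0 CPM in primary controls and 0, 0 and 0.0285 CPM in primary DM, with at least 10 counts in 1 library only.

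**Figure D3:**
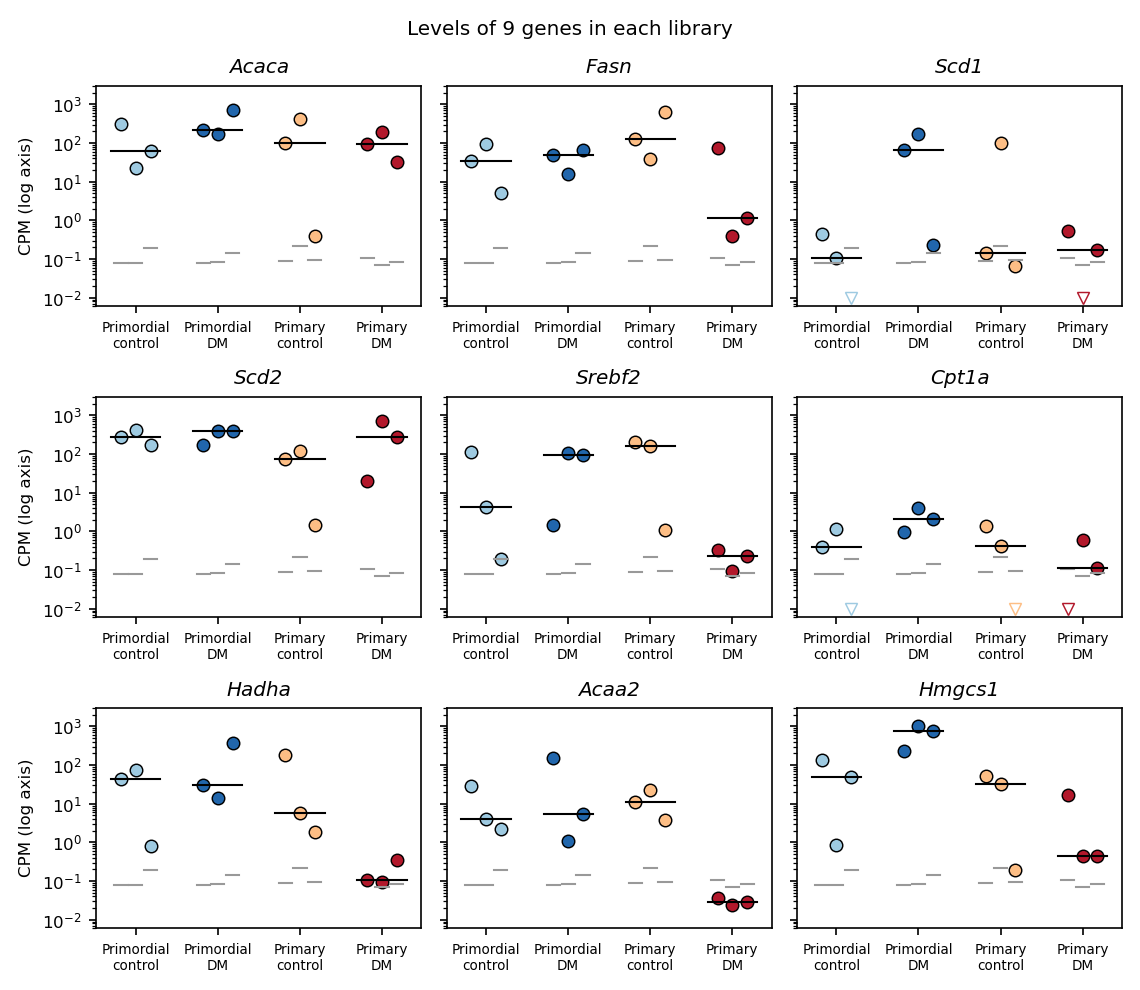
CPM (log axis) of 9 genes in each library, by group, with a black line at the group median, open triangles for counts of 0 and grey ticks at 3 counts. *Hmgcs1* lay above all controls in the 3 primordial DM libraries (231 to 1040 CPM), and *Acaa2* and *Srebf2* lay below all controls in the 3 primary DM libraries (at most 0.0364 and 0.327 CPM).

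Among the oxidation genes, *Cpt1a*, the carnitine palmitoyltransferase at the gate of the mitochondrion, was low throughout. It stood at 0.396, 1.16 and 0 CPM in primordial controls, 0.994, 4.10 and 2.09 CPM in primordial DM, 1.35, 0.428 and 0 CPM in primary controls and 0, 0.610 and 0.114 CPM in primary DM. The highest library of all had 143 counts, and the groups overlapped in both stages. Its log2 fold change with DM was 2.58 ± 2.40 in primordial follicles (edgeR adjusted p = 0.807). In primary follicles it was 1.04 ± 2.16 (edgeR adjusted p = 0.808), with the opposite sign under library size alone (-1.40) and without primary DM replicate 2 (-1.29).

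*Acaa2*, the mitochondrial 3-ketoacyl-CoA thiolase of the last step of each round of oxidation, stood at 28.5, 4.15 and 2.25 CPM in primordial controls, 150, 1.12 and 5.46 CPM in primordial DM, 10.9, 23.3 and 3.70 CPM in primary controls and 0.0364, 0.0235 and 0.0285 CPM in primary DM. Each primary DM library held exactly 1 count, whereas the other 9 libraries held between 34 and 5751. Pooled over libraries, the level in primary DM was 361-fold lower than in primary controls (95% exact interval 123 to 1750, counting error only), and 263-fold lower without control replicate 2. The fitted log2 fold change was -7.32 ± 3.35 (edgeR adjusted p = 0.395) and stayed between -7.54 and -6.95 when single libraries were left out. In primordial follicles the groups of *Acaa2* overlapped.

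*Hadha* (chromosome 5, 30118304 to 30155162) and *Hadhb* encode both subunits of the mitochondrial trifunctional protein, which carries out the later steps of oxidation of long chains, and start from the shared stretch shown above. *Hadha* stood at 43.1, 76.5 and 0.794 CPM in primordial controls, 30.2, 14.4 and 371 CPM in primordial DM, 187, 5.63 and 1.90 CPM in primary controls and 0.109, 0.0938 and 0.342 CPM in primary DM. *Hadhb* stood at 7.21, 319 and 0.397 CPM in primordial controls, 156, 15.5 and 3.61 CPM in primordial DM, 0.147, 79.8 and 0.193 CPM in primary controls and 0.0727, 0.141 and 0.0285 CPM in primary DM. Both genes were at 12 counts or fewer in every primary DM library. Outside that group the high libraries differed between them, since primary control replicate 1 had 6381 counts of *Hadha* and 5 of *Hadhb*. With DM in primary follicles, the log2 fold change of *Hadha* was -6.66 ± 3.52 (edgeR adjusted p = 0.396), and *Hadhb* did not pass the filter there. The exons of *Hadha* overlap those of *Garem2* on the other strand.

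*Acads*, the short-chain acyl-CoA dehydrogenase, stood at 11.2, 0 and 0 CPM in primordial controls, 7.43, 0.0573 and 0 CPM in primordial DM, 59.0, 8.55 and 0 CPM in primary controls and 0, 0 and 88.5 CPM in primary DM. Each group had both a library at 0 and a library with at least 284 counts. The other dehydrogenases *Acadm*, *Acadl* and *Acadvl*, which take medium, long and very long chains, reached at most 3.57, 27.4 and 5.13 CPM and were at 0 in 7, 5 and 5 of the 12 libraries. *Cpt2*, the inner-membrane carnitine palmitoyltransferase, had counts in 3 libraries only, and *Hadh*, the short-chain hydroxyacyl-CoA dehydrogenase, was at 0 in 7 libraries, all 3 of primary DM among them. The carnitine-acylcarnitine carrier *Slc25a20* had 69.4% of its summed CPM in primordial DM replicate 3, and the enoyl-CoA hydratase *Echs1* ranged from 0.0285 to 81.8 CPM with 54.8% in that same library.

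Over the 14 oxidation genes, 8 were tested in primordial follicles, of which 5 had a fold change above 0, with a median of 1.71 against 0.13 for all genes. That median was -2.01 without primordial DM replicate 3, against -0.37 for all genes in the same setting. It was -0.71 without primordial DM replicate 1 and -0.36 with no filter on low counts, where the medians of all genes were -0.84 and -0.76. In primary follicles 6 were tested, with a median of -0.67 against 0.31 for all genes. This median was 0.76 without primary control replicate 3, against 0.26 for all genes. It was 0.78 without primary control replicate 2 and 1.81 with the size factors of DESeq2, where the medians of all genes were 0.89 and 2.04. The summed levels of the role overlapped between control and DM in both stages, at 12.3 to 447 against 37.5 to 681 CPM in primordial and 20.1 to 260 against 1.57 to 89.6 CPM in primary follicles.

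The acyl-CoA synthetases, which charge free fatty acids with coenzyme A for either route, were led by *Acsl3*. It stood at 42.8, 588 and 40.0 CPM in primordial controls, 284, 2.24 and 0.428 CPM in primordial DM, 142, 0.499 and 0.289 CPM in primary controls and 0.254, 336 and 0.228 CPM in primary DM. Only the primordial controls had at least 605 counts of *Acsl3* in all 3 libraries, and the groups overlapped. *Acsl3* shares exons with *Utp14b* on the same strand, so reads on those exons are uncertain. *Acsl4*, which prefers arachidonate, ranged from 0.171 to 1180 CPM with its highest library in primary DM, and *Acsl1* had at most 30 counts.

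Among the sterol genes, *Hmgcs1* (chromosome 13, 119690379 to 119708260), the cytosolic HMG-CoA synthase at the entry to cholesterol synthesis and a classical target of SREBP-2, gave the clearest separation in primordial follicles. It stood at 132, 0.836 and 49.2 CPM in primordial controls and at 231, 1040 and 774 CPM in primordial DM. All 3 DM libraries lay above the highest control, and the controls spread from 31 to 5004 counts. Fitted over all 6 primordial libraries, the log2 fold change was 4.47 ± 2.12 (edgeR adjusted p = 0.658) and lay between 3.92 and 5.22 as libraries were left out, and DESeq2 on all 12 libraries gave 5.54 with an adjusted p of 0.0343. In primary follicles *Hmgcs1* stood at 51.0, 32.8 and 0.193 CPM in controls and at 16.8, 0.446 and 0.456 CPM after DM, with overlap. There the fold change was -1.02 ± 2.70 (edgeR adjusted p = 0.843), and it was positive with the size factors of DESeq2 (1.15). The antisense gene *Gm48342* overlaps its exons, and *Srebf2* itself overlapped between the groups in primordial follicles.

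The later sterol genes did not repeat that pattern in every library. *Fdft1*, squalene synthase, stood at 12.6, 2.51 and 1.46 CPM in primordial controls, 31.3, 60.7 and 0.0475 CPM in primordial DM, 0.587, 27.1 and 0 CPM in primary controls and 3.93, 0 and 0.827 CPM in primary DM, and its exons overlap those of *Ctsb* on the other strand. *Lss*, lanosterol synthase, stood at 17.4, 1.27 and 5.16 CPM in primordial controls, 10.7, 1.86 and 0.0475 CPM in primordial DM, 4.02, 0.428 and 0 CPM in primary controls and 0, 0 and 0.713 CPM in primary DM. In primordial DM, replicate 3 was the low library for both genes, although it held 774 CPM of *Hmgcs1*. *Dhcr7*, the last enzyme of cholesterol synthesis, stood at 2.19, 3.48 and 2.18 CPM in primordial controls, 1.23, 2.41 and 0 CPM in primordial DM, 4.31, 97.9 and 0.129 CPM in primary controls and 0, 0.0235 and 385 CPM in primary DM. *Sqle*, squalene epoxidase, had at most 60 counts except for 774 in primary DM replicate 2. The summed sterol level was 8.20 to 166 CPM in primordial controls and 274 to 1100 CPM in primordial DM, without overlap under the 3 scalings tried, and *Hmgcs1* made up most of it in each DM library. Sums of other sets of genes were not compared here either. Fold changes were above 0 for 2 of the 4 sterol genes tested, with a median of 1.54. In primary follicles 1 of 4 was above 0, with a median of -0.89. The sums there overlapped with library totals (0.321 to 159 against 18.6 to 387 CPM) and with TMM. With the size factors of DESeq2 they did not overlap, and DM was higher (4.26 to 29.5 in controls against 82.6 to 2820).

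**Figure D4:**
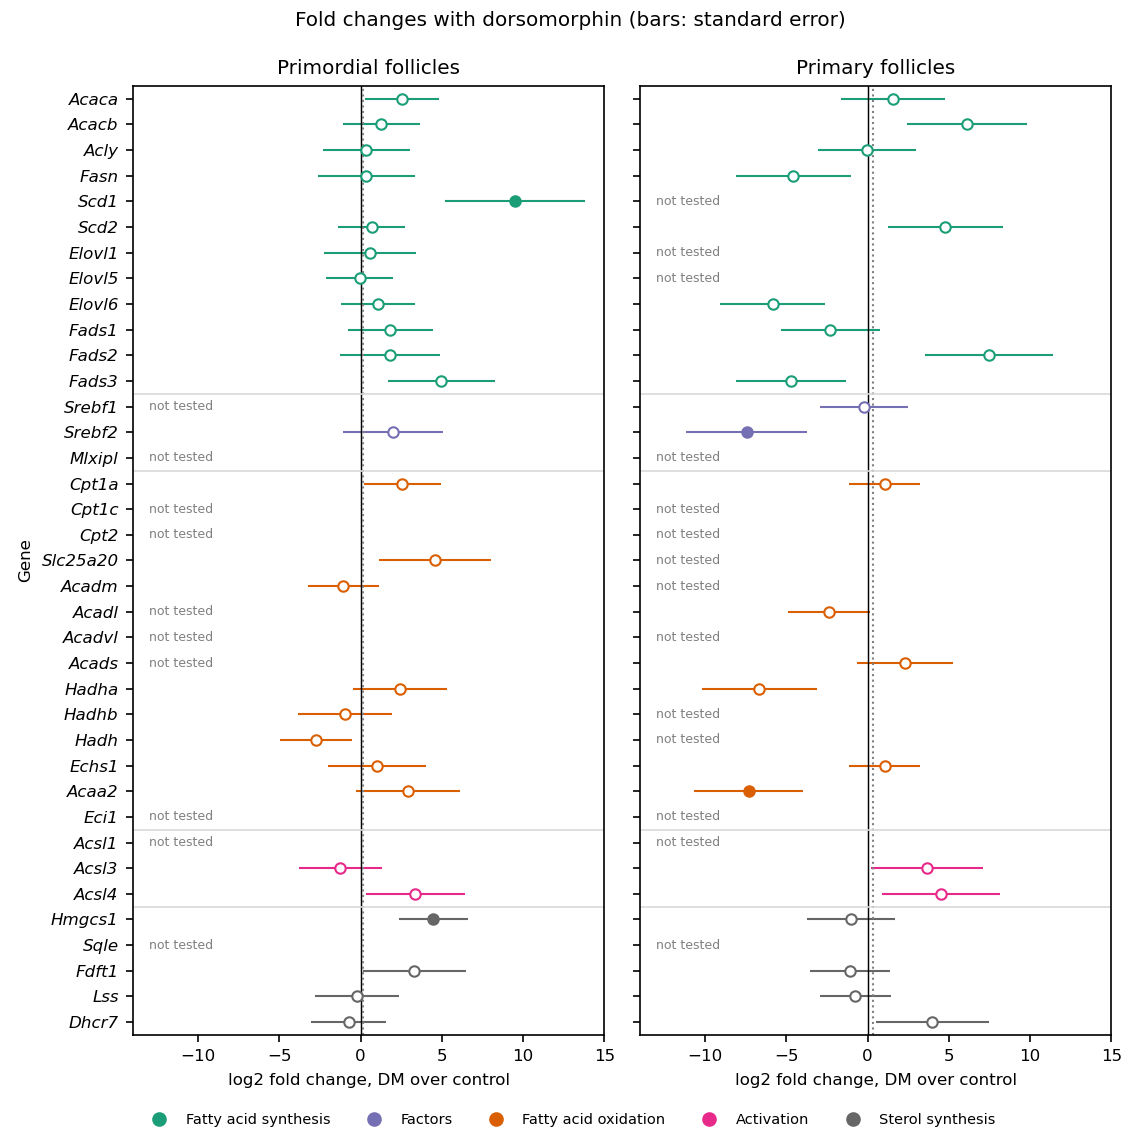
Log2 fold change of DM over control with its standard error (horizontal axis) for the genes tested in primordial (left) and primary (right) follicles, coloured by role, with filled points for an unadjusted p under 0.05 and a dotted line at the median of all genes tested. The 2 filled points on the left are *Scd1* (9.51) and *Hmgcs1* (4.47), and those on the right are *Acaa2* (-7.32) and *Srebf2* (-7.44).

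The other genes of the same pathways were compared by edgeR alone. Of 23 further genes of fatty acid and lipid synthesis, 10 were tested in primordial and 5 in primary follicles, of 27 further oxidation genes 13 and 6, and of 23 further genes of sterol synthesis and uptake 11 and 8. None had an adjusted p under 0.05 by edgeR in either stage. At an unadjusted p under 0.05, 1 oxidation gene was higher and 1 lower in primordial follicles, and 1 oxidation gene and 1 sterol gene were lower in primary follicles, against 7.33% and 12.2% of all genes in either direction. For the further sterol genes tested the median fold change with DM was 2.06 in the primordial and -2.63 in the primary stage, against 0.13 and 0.31 for all genes.

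Oocytes from primary and primordial follicles were then compared under each treatment, and these comparisons share their libraries with those of DM. In controls, no lipid gene of 29 tested had an adjusted p under 0.05 by edgeR, nor did any of all 6726 genes (0%). *Fads3* was the 1 gene with an unadjusted p under 0.05, higher in primary follicles, against 2.99% of all genes higher. Its log2 fold change was 11.89 ± 3.30 (edgeR adjusted p = 0.205) and rested on the 50676 counts of primary control replicate 3, since it was -0.54 without that library. *Fads1* lay higher in all 3 primary controls and *Elovl1* and *Scd2* lower, 3 of 29 genes without overlap against 9.69% of all genes. DESeq2 called no lipid gene of 19 with an adjusted p (5.54% of all genes called). Fitted to all 12 libraries, it called *Scd1* among 17 (4.83% of all genes called).

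After DM, no lipid gene of 22 tested, and none of all 4331 genes (0%), had an adjusted p under 0.05 by edgeR. At an unadjusted p under 0.05 there were 7 of 22 lipid genes against 17.2% of all genes, of which 6 were lower in primary follicles (*Elovl5*, *Srebf2*, *Acaa2*, *Hadha*, *Hadhb* and *Scd1*) against 11.7% of all genes. *Dhcr7* was the 1 higher. *Elovl5*, *Srebf2*, *Acaa2*, *Cpt1a*, *Hadha*, *Hadhb* and *Hmgcs1* had all 3 primary DM libraries below the 3 primordial ones, 7 of 22 genes against 17.0% of all genes. Of these, *Elovl5*, *Srebf2*, *Acaa2* and *Hadhb* had at least 10 counts in no primary DM library, and *Hadha* and *Cpt1a* in 1. All of these but *Hmgcs1* passed the filter on low counts through primordial DM, so their lower levels are not independent of the filter. DESeq2 called 5 of 16 lipid genes with an adjusted p (31.2%, against 24.3% of all genes called). Fitted to all 12 libraries, it called 6 of 17 (35.3%, against 22.2%), with 4 in both lists. Of these, *Acaa2*, *Srebf2* and *Elovl1* were lower and *Acacb* was higher in primary DM, at 173, 61.2 and 0 CPM against 0.131, 7.62 and 0 CPM in primordial DM, which overlap. The others were *Hadhb*, lower, in the first list, and *Hadha*, lower, and *Srebf1*, higher, in the second.

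In that comparison *Acaa2* had a log2 fold change of -9.16 ± 3.78 (-5.51 without primordial DM replicate 1) and a pooled level 2200-fold lower in primary DM (95% exact interval 752 to 10700, counting error only), which was 96.6-fold without primordial DM replicate 1. For the trifunctional protein the fold changes were -8.26 ± 3.80 for *Hadha*, and -5.22 without primordial DM replicate 3, and -7.65 ± 3.54 for *Hadhb*, and -5.19 without primordial DM replicate 1. They were -7.03 ± 3.47 for *Srebf2*, -7.31 ± 3.57 for *Scd1* and -6.84 ± 2.57 for *Elovl5*, each with an edgeR adjusted p of 0.286 like the 3 oxidation genes. The fitted value of *Elovl5* depends on the prior count, since it was -3.02 with a prior count of 2. Against 0 counts, *Elovl5* was at least 7.15-fold lower in primary DM, and at least 5.21-fold without primordial DM replicate 2. *Dhcr7* gave 8.34 ± 4.17 (edgeR adjusted p = 0.290), which turned to -4.57 without primary DM replicate 3, the library with 13511 of its counts. All 5 oxidation genes tested had fold changes below 0, with a median of -7.65 against 0.35 for all genes. All 5 had passed the filter with higher levels in primordial DM.

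Whether the difference with DM itself differed between the stages was tested as an interaction over all 12 libraries. By edgeR, none of 31 lipid genes and none of all 8500 genes (0%) had an adjusted p under 0.05. At an unadjusted p under 0.05 there were 6 of 31 lipid genes against 18.9% of all genes, and for all 6 the difference of DM from control was more negative in primary than in primordial follicles, against 9.78% of all genes with such a p and sign. The interaction was -14.43 ± 5.25 on the log2 scale for *Scd1* (edgeR adjusted p = 0.145), -9.93 ± 4.83 for *Acaa2* (0.244), -9.03 ± 4.51 for *Hadha* (0.256), -9.16 ± 4.57 for *Srebf2* (0.256) and -9.20 ± 4.66 for *Elovl5* (0.262). Leaving out 1 library brought it to -8.50 for *Scd1* (without primary control replicate 2), -6.55 for *Acaa2* (without primordial DM replicate 1), -5.94 for *Hadha* and -4.84 for *Elovl5* (both without primary control replicate 1), and for *Srebf2* it lay between -12.34 and -8.29. For *Fads3* it was -9.60 ± 3.92 (edgeR adjusted p = 0.181), and 3.28 without primary control replicate 3. DESeq2 called *Scd1*, *Acaa2*, *Hadha* and *Srebf2* among 17 lipid genes with an adjusted p (23.5%, against 11.5% of all genes called).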

How the data were processed

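The deposited file held whole-number counts of reads per gene, without normalization, for 12 libraries of laser-captured mouse oocytes. Per the study's methods, the authors trimmed reads with trim_galore, mapped them to mm10 (GRCm38) with TopHat2 and counted them per gene with featureCounts, whereas the submitters' processing notes name STAR. Library preparation is described with both TruSeq RNA Access and Smart-seq II, after amplification of the RNA, and use of strand in counting is not given in the sources used here.

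The 37 genes and all lists were chosen with earlier results of these data known. Of 55401 identifiers, 55141 had a symbol in GENCODE M21, which also gave positions and exon lengths. CPM used library totals. Each comparison used edgeR 4.0.16 in R 4.3.3 (filterByExpr, TMM, glmQLFit and glmQLFTest, prior count 0.125) on the 2 groups of a comparison, or on all 12 libraries for the interaction, and p-values were adjusted by Benjamini-Hochberg over every gene tested, with a threshold of 0.05. Standard errors came from the fold change and the F statistic. The study calls the 3 libraries of a group biologically independent. Libraries of a group differed by a chi-square of at least 1588 per degree of freedom, so none was the same library sequenced again. Separate amplifications of 1 pool could also differ in this way, so the check cannot tell whether pools were shared. Simulated counts served only as a check of the code. How the tests perform at the spread of these libraries was not tested. That spread was wide, with a biological coefficient of variation (relative spread between libraries of a group) from 1.76 to 1.9 over the comparisons. Alternatives were DESeq2 1.42.0 on the same or all 12 libraries, other scalings, no filter or at least 10 counts in every library, a prior count of 2, an unadjusted p, a replicate block, all 12 libraries in 1 edgeR fit, and each library left out.

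Values in every library were given for *Acaca*, *Acacb*, *Fasn*, *Cpt1a*, *Hmgcs1*, *Srebf1*, *Srebf2* and *Mlxipl*, for the 4 genes of synthesis, oxidation and sterol synthesis and the 1 of activation with the highest mean log2(CPM + 1), and for genes with an unadjusted p under 0.05. Figures were drawn with matplotlib 3.10.9.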

Additional observations from a re-analysis of the deposited data

How the results depend on the processing

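No lipid gene had an adjusted p under 0.05 in edgeR under any scaling, filter or prior count tried, in 1 fit of all 12 libraries or with any library left out. DESeq2 called 1 lipid gene in primordial and 3 in primary follicles with DM, 5 between the stages after DM and 4 in the interaction. Fitted to all 12 libraries it called 2, 3 and 6, and 1 between the stages in controls. An unadjusted p under 0.05 in edgeR gave 2, 2, 1, 7 and 6 genes in the 5 comparisons. Of 404 alternative values for 25 fold changes, 390 had the same direction, and 18 of the 25 kept theirs throughout. Apart from *Acaca*, *Fasn*, *Cpt1a* and *Hmgcs1* with DM, these fold changes were taken in for an unadjusted p under 0.05 in these data. The alternatives refit the same libraries, so the tally is not separate evidence for any direction.

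The direction turned for *Fasn* in primordial follicles with library size alone (-0.06), for *Acaca* (-0.83) and *Cpt1a* (-1.40) in primary follicles with library size alone, and for *Hmgcs1* in primary follicles with DESeq2 (1.34), DESeq2 on all libraries (1.69) and its size factors in edgeR (1.15). Leaving out each library gave -0.25 to 2.24 for *Fasn*, -1.29 to 2.51 for *Cpt1a*, -0.54 to 13.76 for *Fads3* between the stages in controls, -4.57 to 9.26 for *Dhcr7* between the stages after DM and -17.74 to 3.28 for *Fads3* in the interaction. The causes were not tested, except that single libraries carry *Fads3* and *Dhcr7*. The scaling moved the median of all genes in primary follicles from 0.31 (TMM) to 2.04 (DESeq2 size factors) and -0.96 (library size). With a replicate block, no lipid gene was called, and *Dhcr7* after DM turned to -3.33. The numbers did not pair the libraries, since deviations of same-numbered libraries correlated between -0.039 and 0.033 over 8500 genes. A filter of at least 10 counts in every library left no value for genes with a lower count in any library. Fold changes for the stage comparisons and the interaction, and sums under other scalings, were tried after the data had been seen.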
